A study of Mus musculus with 32 samples.

Results

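The chemokines, the interleukins and their receptors were followed in the livers of male C57BL/6J mice fed a standard diet (SD) or a high-fat diet (HFD), with or without disulfiram (DSF), a drug given against alcohol dependence that inhibits aldehyde dehydrogenase. The members were taken by symbol alone: every probe of the array whose annotated gene symbol starts with Ccl, Cxcl, Ccr, Cxcr or Il followed directly by a digit. This gave 168 probes for 124 genes, of 25697 probes for 16593 genes on the array (0.654% of the probes). Several genes have more than 1 probe, and such probes share their target and are no independent members. The symbols also take in Il4i1, an enzyme, while fractalkine, Xcl1, tumour necrosis factor and other cytokines with other names fall outside.

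The 6 groups compared were all labelled 56 weeks of age, had been kept 40 weeks on their diet and were not fasted. The sources differ from each other by a few weeks on both the age and the time on diet. In SDL mice DSF was mixed into SD at 1 g/kg of food for an intended 100 mg/kg/day, and in SDH mice at 2 g/kg for 200 mg/kg/day. HFDL and HFDH mice received HFD at the same intended doses, with 2.33 and 2.67 g/kg of DSF in the food. HFD mice and SD mice received no DSF. RNA of whole liver from 30 mice was hybridised to 32 Illumina MouseRef-8 v2 BeadChips, a pair of mice having a repeat array, and 27 mice had arrays that detected at least 35% of all probes: 5 HFD, 4 HFDL, 4 HFDH, 5 SD, 5 SDL and 4 SDH. The replicate numbers of mice on DSF are those in the headers of the intensity table, which give the group but do not match the numbers in the sample titles.

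Chemokines are small secreted proteins that direct leukocytes along a gradient and act through receptors that span the membrane repeatedly and couple to G proteins. CC and CXC ligands are named for the spacing of their first cysteines. Interleukins are signals between leukocytes and between leukocytes and tissue cells, and most act through pairs of receptor chains that engage either the JAK-STAT pathway or, for the interleukin-1 family, the NF-kappa-B pathway. In liver, hepatocytes, Kupffer cells (the resident macrophages), endothelium and stellate cells make several of these ligands, and hepatocytes carry receptor chains such as the interleukin-6 receptor, through which the acute-phase response is set.

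Values are given as normalized signal, the probe's brightness after each array was brought to a common mean and spread on the log2 scale, so the levels of different probes cannot be set against each other. A probe was taken as detected in a mouse at a detection p under 0.05, a limit that 5% of the array's negative controls also pass. Arrays kept in the comparisons detected 43.8 to 52.7% of all probes, and those of the mice left out 6.56% (SDH replicate 16), 23.7% (HFDL replicate 10) and 27.2% (HFDH replicate 16). The repeat arrays of 1 mouse correlated at r = 0.997 (SD replicate 1) and 0.996 (HFD replicate 2) and were averaged. Markers of pancreatic acini, which liver should lack, summed to a signal of 84137 in SDH replicate 17 and 10924 in SD replicate 2, against at most 2445 in any other mouse. Of 7 probes for hepatocyte markers, 5 were detected in all 27 mice. The number of arrays limits the precision of every value.

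Most of the family was dim in these livers. Of the 168 probes, 37 (22%) were detected in all 27 mice, 59 in some and 72 (42.9%) in none. Over all probes of the array the shares were 38% in all mice and 39% in none. By gene, 26 had a probe detected in every mouse and 51 had none detected in any mouse. Undetected here means that the signal did not stand above the negative controls, not that the transcript was absent.

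Detection differed by role. Of 20 probes for the chemokine receptors, which mark leukocytes, none was detected in all mice and 13 (11 of 16 genes) were in none, among them Ccr1, Ccr2, Cxcr2 and Cxcr6. Of 28 probes for CC ligands, 7 were detected in all mice and 6 in none, with Ccl5, Ccl9, Ccl19, Ccl25 and Ccl27a the genes seen throughout. The 19 probes for CXC ligands were split more sharply, with 7 in all mice (Cxcl1, Cxcl9, Cxcl12, Cxcl13 and Cxcl16) and 9 in none. Of the neutrophil attractants, Cxcl1 was seen in all mice and Cxcl2, Cxcl3 and Cxcl5 in none. Of 43 probes for interleukins, their antagonists and binding proteins, 26 were in no mouse. Of the T helper products, Il4, Il5, Il17a, Il21 and Il22 were in no mouse, while Il13 was in every mouse, at dim intensities of 66 to 106 before normalization. Il15, Il18, Il18bp, Il1b and Il33 were also detected in every mouse. Of 58 probes for the receptor chains, 17 were in all mice and 18 in none. The chains for interleukin-1 (Il1r1, Il1rap), interleukin-6 (Il6ra, Il6st) and interleukin-13 (Il13ra1) were among those seen in every mouse.

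Of 6 inflammatory members looked up whatever their values, Il1b and Il18 were detected in all 27 mice, and Il6, Ccr2, Ccl2 and Il10 were at the edge of detection or under it. Il6, the main driver of the acute-phase response, had signals of 41.9 to 55.9 and was detected in no mouse, and Ccr2, the receptor through which monocytes are recruited, had signals of 37.2 to 49.2 and was detected in none. Ccl2, a ligand of Ccr2, was detected in 1 of 5 HFD mice (69.6, 55.7, 53.6, 56.2 and 50.3) and in 1 of 5 SD mice (58.8, 74, 58.1, 52.5 and 55.2). Il10, an anti-inflammatory interleukin, was detected in 1 mouse, SD replicate 5, at 65.1. No change of these 4 genes was measurable at this signal.

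The number of member probes detected per mouse had a median of 60 (54 to 64) in HFD, 61 (54 to 69) in HFDL and 53.5 (50 to 57) in HFDH mice. It had a median of 64 (48 to 74) in SD, 58 (58 to 70) in SDL and 59 (56 to 66) in SDH mice. The range of HFDH mice lay below that of SDL mice and overlapped with those of the other groups, and no test was made on these counts. The share of all probes detected moved with them in part: it was 43.8 to 45% in HFDH mice, against 44.3 to 48.8% in HFD mice.

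**Figure D1:**
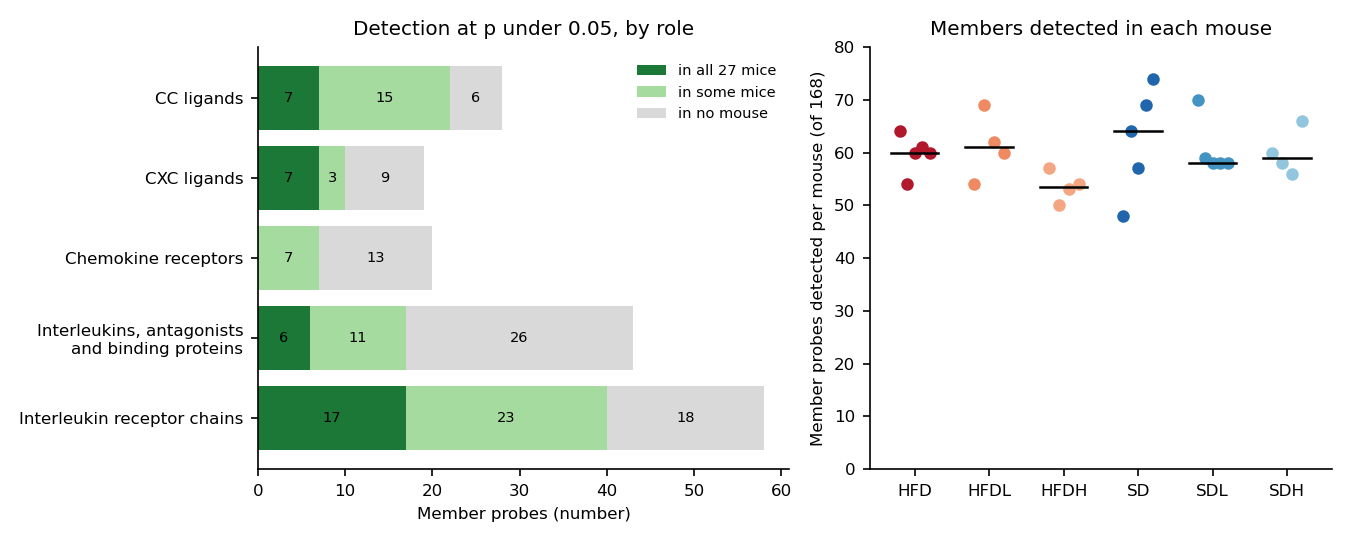
Detection of the chemokine, interleukin and receptor probes. The stacked bars give, for each role, the number of probes detected (p under 0.05) in all 27 mice, in some and in none, with chemokine receptors having no probe in all mice; the points give the number of the 168 probes detected in each mouse by group, with a line at the median, which is lowest in HFDH mice (53.5).

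For tests, a probe had to be detected in at least 5 of the 27 mice, which left 75 member probes (44.6%) of 56 genes, and 13275 probes (51.7%) over the array. A probe was called at an adjusted p under 0.05, from limma's moderated test with Benjamini-Hochberg adjustment over all 13275 probes. Over the 6 groups together, limma's F test called 18 of the 75 members (24%), against 18.8% of all probes, and 34 had an unadjusted p under 0.05 (34.4% of all probes). In each pairwise comparison the share of members called is read against the share of all probes called. HFD-SD, SDL-SD and SDH-SD share the SD mice, and HFDL-HFD and HFDH-HFD share the HFD mice.

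High-dose DSF on SD was the comparison with most calls. In SDH against SD livers, 9 of 75 members were called (12%), 3 higher and 6 lower, with 7.39% of all probes called (2.7% higher and 4.69% lower). Of 17 CC ligand probes, Ccl9 and a Ccl25 probe rose, while Ccl4 and Ccl3 fell. Ccl3 had passed the filter for testing only through mice without DSF. Of 9 CXC ligand probes, Cxcl1 rose and Cxcl10 and 2 probes of Cxcl12 fell. Of 15 interleukin probes Il1a fell, and of 33 receptor chain probes and the Cxcr4 probe none was called. The median log2 fold change was -0.07 over the members and -0.05 over all probes, and by role it was -0.1 for CC ligands, -0.4 for CXC ligands, -0.12 for interleukins and 0.02 for receptor chains. The groups did not overlap for 4 of 75 members (8% of all probes).

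Of the CC ligands, Ccl25, which guides developing T cells to the thymus and lymphocytes to the small intestine, had the smallest p of the family. Its probe ILMN_2942353 gave signals of 329, 392, 362 and 381 in SDH livers, against 255, 184, 255, 210 and 186 in SD livers. All SDH mice lay above all SD mice. The log2 fold change was 0.76 (SE 0.13, 1.69-fold, adjusted p = 0.0015). SDL mice, at 244, 314, 235, 304 and 336, overlapped with both groups (SDL-SD 0.39, adjusted p = 0.18). On HFD, the signals were 272, 259, 202 and 240 in HFDH and 231, 222, 200, 197 and 203 in HFD livers (0.2, adjusted p = 0.42). The difference between the 2 diets in the high-dose effect was -0.56 (adjusted p = 0.19), which was not called. The other Ccl25 probe, ILMN_2661722, measured 156, 168, 127 and 134 in SDH against 135, 112, 122, 135 and 114 in SD livers (0.24, adjusted p = 0.23).

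Ccl9, a macrophage product that attracts myeloid cells through Ccr1, measured 3580, 3100, 2810 and 3320 in SDH livers, against 1620, 1100, 1870, 1550 and 3760 in SD livers. Of the SD mice, replicate 5 lay above all SDH mice. The log2 fold change was 0.82 (SE 0.25, 1.76-fold, adjusted p = 0.044), and it was not called in 22 of 37 alternatives (adjusted p of 0.0021 to 0.63).

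Ccl4 and Ccl3, macrophage and lymphocyte products that attract leukocytes, were lower. Ccl4 (ILMN_1223257) measured 67.3, 65.9, 58.2 and 54 in SDH livers, where it was detected in 1 mouse, against 79.7, 230, 89.8, 203 and 223 in SD livers, where it was detected in all 5. The groups did not overlap, and the log2 fold change of the measured signals was -1.29 (SE 0.29, 2.45-fold lower, adjusted p = 0.0085), with 3 of the 4 SDH signals not above background. SDL livers, at 97.1, 68.6, 65.4, 55.8 and 61.6, gave -1.13 (adjusted p = 0.054, which 8 of 37 alternatives brought under 0.05, range 0.012 to 1).

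On HFD the probe ran the same way without being called. It measured 58.7, 59.5, 53.1 and 56.7 in HFDH livers, detected in none, against 173, 109, 76.4, 155 and 82.1 in HFD livers, detected in all 5. The groups did not overlap, the ratio was at least 1.55-fold lower in HFDH (dim signals raised to the lowest detected signal of their array), and the adjusted p of 0.05 lay just above the threshold (under it in 18 of 37 alternatives, range 0.027 to 0.96). The other Ccl4 probe, ILMN_1224472, was detected in 5 mice, all without DSF, and gave -0.3 in SDH-SD (adjusted p = 0.15).

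Ccl3 measured 49.3, 44.6, 41.5 and 46.3 in SDH livers, where it was detected in none, against 49, 70.2, 53, 64.6 and 82.9 in SD livers, where it was detected in 3. The mean log2 signals, 5.5 ± 0.1 in SDH and 5.97 ± 0.31 in SD livers (SD, n = 4 and n = 5), differed in limma's test (adjusted p = 0.023). No SDH value was above background and the bound on the ratio was under 1, so no fold is given for it. All mice in which Ccl3 was detected were SD or HFD mice, so it entered the tests only through mice without DSF. A lower signal on DSF was favoured by that entry, and no conclusion is drawn from the call. Ccl27a, a chemokine of epithelia, had signals of 438 to 1060 (ILMN_3146018) and gave an adjusted p of 0.091 in limma's F test over the 6 groups. Ccl27a and the Ccl21 genes (Ccl21a, Ccl21b and Ccl21c, detected in 19, 14 and 13 mice) have near-identical copies in the mouse genome, and their probes may not tell the copies apart.

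Among the CXC ligands, Cxcl1, Cxcl9, Cxcl10 and Cxcl12 were called. The region around the start of Cxcl1, Cxcl9 and Cxcl10 is shown because these ligands are classed in textbooks by the signal that induces them: Cxcl1 by NF-kappa-B, Cxcl9 and Cxcl10 by interferon. The promoters are from RefSeq (GRCm38.p6) and run 5′ to 3′ on the gene's strand over 300 bases, with the start of the gene 50 bases before the end. The windows lie at chr5:90890995-90891294 (plus strand) for Cxcl1, chr5:92328030-92328329 (minus strand) for Cxcl9 and chr5:92348840-92349139 (minus strand) for Cxcl10. Capitals mark matches, on either strand, to GGGANTTTC (a short form of the motif bound by NF-kappa-B), GAAANNGAA (a short form of the interferon-stimulated response element) and TATAAA.
Cxcl1: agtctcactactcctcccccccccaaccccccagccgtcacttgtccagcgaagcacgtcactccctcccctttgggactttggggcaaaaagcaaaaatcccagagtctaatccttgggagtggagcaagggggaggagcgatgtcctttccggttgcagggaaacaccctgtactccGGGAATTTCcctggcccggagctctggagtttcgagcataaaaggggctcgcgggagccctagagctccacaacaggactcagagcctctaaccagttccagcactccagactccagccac
Cxcl9: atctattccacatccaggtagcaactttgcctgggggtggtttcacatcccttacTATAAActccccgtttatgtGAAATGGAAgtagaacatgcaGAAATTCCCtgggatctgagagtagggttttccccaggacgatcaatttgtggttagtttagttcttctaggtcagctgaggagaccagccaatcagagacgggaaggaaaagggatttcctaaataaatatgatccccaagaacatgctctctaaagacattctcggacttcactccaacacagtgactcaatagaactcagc
Cxcl10: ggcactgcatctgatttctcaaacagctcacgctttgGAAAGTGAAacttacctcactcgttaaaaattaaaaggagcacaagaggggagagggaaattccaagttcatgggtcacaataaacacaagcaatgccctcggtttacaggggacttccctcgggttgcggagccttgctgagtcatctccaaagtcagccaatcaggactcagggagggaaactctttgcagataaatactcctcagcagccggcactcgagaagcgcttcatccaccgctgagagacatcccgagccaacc
Of 32851 such windows over all genes, 1.11% hold GGGANTTTC, 8.56% hold GAAANNGAA and 13.6% hold TATAAA. Of the 109 windows for 92 member genes, 8 (7.34%) hold GGGANTTTC, 14 (12.8%) hold GAAANNGAA and 23 (21.1%) hold TATAAA. Counted from the start of the gene, GGGANTTTC lies at -71 to -63 in Cxcl1 and, on the other strand, at -154 to -146 in Cxcl9. GAAANNGAA lies at -213 to -205 in Cxcl10 and at -175 to -167 in Cxcl9, and TATAAA at -195 to -190 in Cxcl9. None of these matches overlaps with another. A match describes the letters only, and where there was no match these letters are simply not in this window.

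Cxcl1, which attracts neutrophils through Cxcr2, was higher in SDH livers at 21700, 15000, 16100 and 5940, against 862, 5100, 5830, 5020 and 9970 in SD livers. SDH replicate 17 lay within the SD range. The log2 fold change was 1.67 (SE 0.51, 3.17-fold, adjusted p = 0.045), a call lost in 17 of 37 alternatives (adjusted p of 0.017 to 0.87). SD replicate 1, at 862, was far below all other mice, and without it the log2 fold change was 1.09 (adjusted p = 0.11). SDL livers measured 7000, 14600, 15200, 12700 and 5940 (SDL-SD 1.3, adjusted p = 0.26), HFD livers 11700, 10500, 15300, 8790 and 6470 (HFD-SD 1.28, adjusted p = 0.24), and HFDH livers 21100, 15900, 21300 and 7290 (HFDH-HFD 0.58, adjusted p = 0.56).

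Cxcl10, an interferon-induced ligand of Cxcr3, was lower. It measured 70.5, 67.9, 50.4 and 53.1 in SDH livers, detected in 2, against 71.1, 218, 79.6, 123 and 224 in SD livers, detected in all 5. The groups did not overlap, by a narrow margin between the highest SDH and the lowest SD mouse, and the log2 fold change was -1.1 (SE 0.25, 2.14-fold lower, adjusted p = 0.0099). SDL livers gave -0.8 (adjusted p = 0.14). Cxcl10 measured 51.1, 62.5, 50.2 and 51.2 in HFDH livers, with none detected, and 102, 103, 60.9, 103 and 73.9 in HFD livers, with 4 detected. The HFDH mean was at least 1.19-fold below the HFD mean (adjusted p = 0.12), and the groups overlapped at the lowest HFD mouse.

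Cxcl12, made by stromal cells and endothelium and bound by Cxcr4, fell by 2 of its probes. ILMN_2737302 measured 630, 489, 535 and 534 in SDH livers, against 729, 905, 786, 792 and 1040 in SD livers, with no overlap (-0.63, SE 0.16, adjusted p = 0.017). ILMN_3158250 measured 442, 296, 360 and 350 against 421, 674, 607, 549 and 604, with overlap only at the lowest SD mouse (-0.65, SE 0.16, adjusted p = 0.016). ILMN_2658908 measured 6150, 5830, 5710 and 4370 against 6010, 5440, 5750, 4950 and 5800 (-0.03, adjusted p = 0.92). The probes of the gene therefore disagreed, and 2 further Cxcl12 probes were detected in no mouse. On HFD the high dose moved ILMN_2737302 by 0.09 and ILMN_2658908 by 0.37 (adjusted p = 0.094 for the second of them). For ILMN_2737302 the difference between diets in the effect was 0.73 (adjusted p = 0.15).

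Il1a, an alarm signal of the interleukin-1 family, was the interleukin that fell. It measured 85.4, 51.4, 70.5 and 53.1 in SDH livers, detected in 2, against 108, 120, 120, 140 and 75 in SD livers. The log2 fold change was -0.79 (SE 0.18, 1.73-fold lower, adjusted p = 0.0088), and SD replicate 5 overlapped with the SDH mice. SDL livers overlapped with both groups, at 90.1, 87.5, 75.4, 74.3 and 59.5 (-0.53, adjusted p = 0.18).

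Without SD replicate 2 and SDH replicate 17, the mice with pancreatic acinar signal, 2 members were called in SDH-SD and Ccl4 (-1.07, adjusted p = 0.064), Cxcl10 (-0.84, 0.074), Il1a (-0.67, 0.067) and Ccl9 (0.62, 0.19) passed the threshold no longer, all in limma's test, nor did either Cxcl12 probe (-0.6, 0.074, and -0.58, 0.082), and Ccl3 was detected in too few mice to be tested. The calls that remained were those of Ccl25 and Cxcl1. The range of adjusted p over all alternatives was 0.0023 to 0.08 for Ccl4, 0.0021 to 0.19 for Cxcl10 and 0.0013 to 0.4 for Il1a. Without SD replicate 2 alone 5 members were called, and with all 30 mice none, where the log2 differences of Ccl25 (-0.06), Ccl3 (0.19) and Ccl9 (-0.59) had the opposite sign. That setting takes in SDH replicate 16, whose highest intensity was 60 and whose log2 spread of 0.102 is stretched to the common one by the scaling. With all 30 mice, 4 probes were called higher and 8 lower over the array in SDH-SD, against 359 and 622 in the reported fit. The loss of calls with all 30 mice was therefore array-wide and not particular to the members. Counts over all probes are not given for the fits without SD replicate 2, with or without SDH replicate 17. The member counts of those fits are not read as a result about the members. Markers of Kupffer cells and macrophages, 12 of 15 probes tested and none called, summed to a signal of 5027 to 6423 in SDH and 3554 to 10315 in SD livers. Some markers of other cell types moved in SDH-SD. Of 6 tested hepatocyte marker probes 3 rose in limma's test. They were 2 probes of Serpina1a (0.83 and 0.74, adjusted p = 0.0031 and 0.0034) and that of Alb (0.51, 0.024), detected in 13 mice. Those of Apoa1, Ttr and Cyp2e1 were not called (adjusted p = 0.18, 0.37 and 0.3). The hepatocyte list summed to 76798 to 103022 in SDH and 58861 to 74439 in SD livers, with no overlap. Of 2 tested cholangiocyte marker probes that of Sox9 rose (0.94, adjusted p = 0.0055) and that of Krt7 was not called (0.05, 0.82). The cholangiocyte sums were 261 to 325 in SDH and 180 to 237 in SD livers. Of 8 tested stellate cell marker probes that of Col1a1 fell (-0.95, adjusted p = 0.031), with sums of 10753 to 14895 in SDH and 10688 to 16155 in SD livers. The part of these cell types in the result was not tested. In whole liver, fewer cells of a type and less RNA per cell cannot be told apart.

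High-dose DSF on HFD gave 2 calls. In HFDH against HFD livers, Cxcl9 and Il10rb fell, 2 of 75 members (2.67%), while 4.22% of all probes were called, 1.39% higher and 2.82% lower. At an unadjusted p under 0.05 there were 15 members (19.9% of all probes). The median log2 fold change was 0.05 over the members and -0.01 over all probes. By role it was -0.01 for CC ligands, 0.02 for CXC ligands, -0.09 for interleukins and 0.12 for receptor chains. The groups did not overlap for 7 of 75 members (9.26% of all probes).

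Cxcl9, an interferon-gamma-induced ligand that attracts activated T cells through Cxcr3, measured 274, 394, 394 and 171 in HFDH livers, against 1080, 1440, 501, 1000 and 626 in HFD livers. All HFDH mice lay below all HFD mice. The log2 fold change was -1.57 (SE 0.41, 2.97-fold lower, adjusted p = 0.028), a call lost in 7 of 37 alternatives (adjusted p of 0.0095 to 0.34). HFDL livers measured 341, 808, 708 and 289 (-0.83, adjusted p = 0.49). On SD the signals were 323, 694, 364, 810 and 982 in SD, 477, 271, 264, 574 and 242 in SDL and 610, 272, 168 and 377 in SDH livers (SDH-SD -0.85, adjusted p = 0.2). The difference between diets was -0.72 and was not called.

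Il10rb, the shared chain of receptors for interleukin-10, interleukin-22 and interferon-lambda, measured 71.2, 71.4, 71 and 75.8 in HFDH livers, detected in 1, against 138, 96.3, 90, 108 and 84.2 in HFD livers. The groups did not overlap (-0.49, SE 0.13, 1.41-fold lower, adjusted p = 0.03), with 3 of the 4 HFDH signals not above background. The call was lost in 7 of 37 alternatives (adjusted p of 0.007 to 0.96). On SD the log2 fold change was -0.1 (adjusted p = 0.7). Neither was called without HFD replicate 1 (Cxcl9 -1.49, adjusted p = 0.076, and Il10rb -0.38, 0.1), HFD replicate 4 (-1.52, 0.066, and -0.47, 0.072) or HFDH replicate 13 (-1.54, 0.082, and -0.48, 0.085). In the same comparison the summed Kupffer cell and macrophage markers were 4400 to 9099 in HFDH and 4167 to 13278 in HFD livers, and the T cell markers 523 to 715 in HFDH and 557 to 602 in HFD livers. None of these markers was called. Of 6 tested hepatocyte marker probes 1 rose, a probe of Serpina1a (0.61, adjusted p = 0.03), whose other probe was not called (0.33, 0.21). The hepatocyte sums were 83524 to 131878 in HFDH and 76655 to 106955 in HFD livers. The part of these cell types in the result was not tested.

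**Figure D2:**
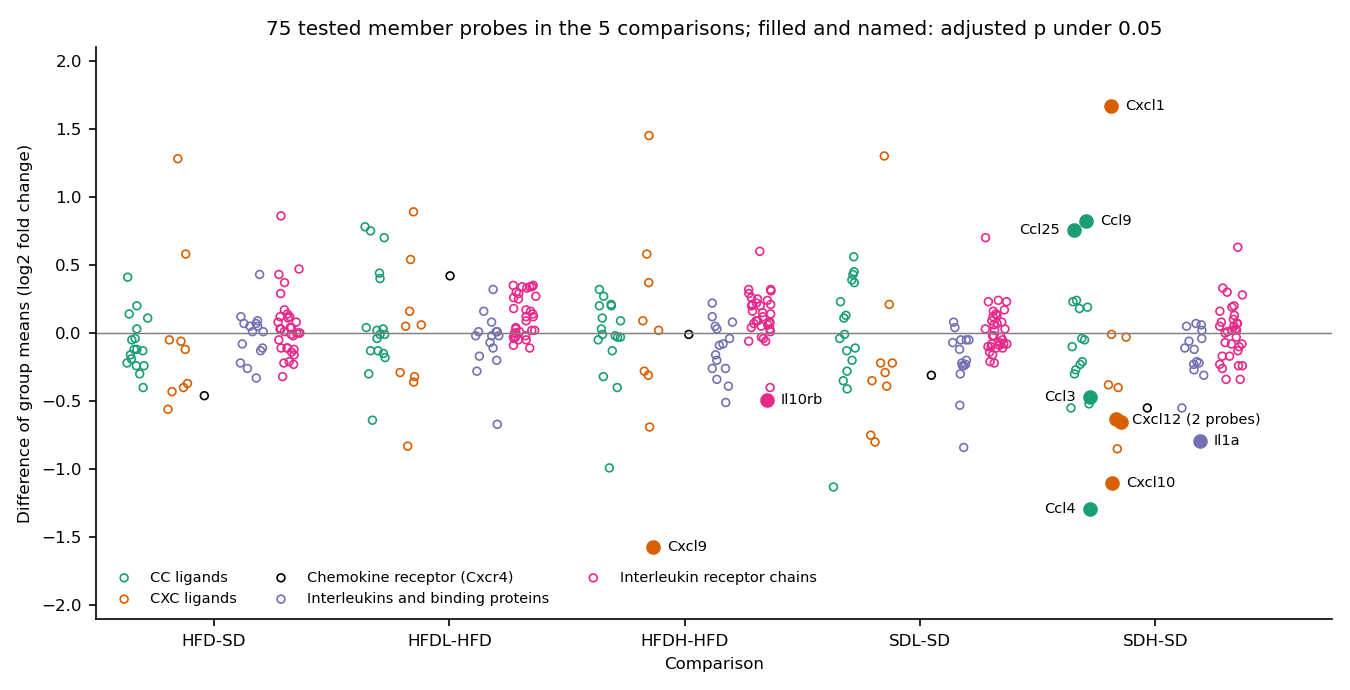
Log2 fold change of each of the 75 tested probes in the 5 comparisons, with called probes filled and named. No member was called in HFD-SD, HFDL-HFD or SDL-SD, 2 were lower in HFDH-HFD, and 3 were higher and 6 lower in SDH-SD.

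HFD itself changed no member past the threshold. In HFD against SD livers 0 of 75 members were called by limma, with 0.859% of all probes called, and 11 members (13.8% of all probes) had an unadjusted p under 0.05. The median log2 fold change was -0.02 over the members and -0.03 over all probes. Il6ra, the binding chain of the interleukin-6 receptor, had the smallest p. It measured 276, 311, 440, 348 and 211 in HFD livers, against 108, 172, 173, 211 and 209 in SD livers. HFD replicate 5 lay at the level of the highest SD mice, and the log2 fold change was 0.86 (SE 0.22, adjusted p = 0.055, under 0.05 in 7 of 38 alternatives, range 0.025 to 1). Without SD replicate 5 it was 0.93 (adjusted p = 0.025).

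The low dose of DSF gave no call on either diet. In HFDL against HFD livers limma called 0 of 75 members (0.482% of all probes, 0.0603% higher and 0.422% lower), 9 members had an unadjusted p under 0.05 (10.4%) and 3 did not overlap between the groups (4.81%). In SDL against SD livers limma called 0 of 75 (0.58% of all probes), 12 had an unadjusted p under 0.05 (11%) and 1 did not overlap (2.61%). The smallest p was that of the Il1rap probe ILMN_2740465 in HFDL-HFD (0.34, adjusted p = 0.23) and of Ccl4 in SDL-SD. High against low dose gave 0 members on HFD and 0 on SD, as over all probes (0%), with 4 and 5 members at an unadjusted p under 0.05 (5.82% and 8.39% of all probes). The difference between diets in the effect of DSF was called for 0 members at the low dose (0% of all probes) and 0 at the high dose (0.0527%), with 5 and 11 members at an unadjusted p under 0.05 (4.41% and 13.7% of all probes).

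Of the interleukin-1 system, Il1b, the cytokine matured by the inflammasome and measured as protein in the study, had signals of 235, 311, 217, 373 and 127 in SD, 178, 124, 127, 114 and 129 in SDL and 184, 122, 212 and 142 in SDH livers. SD replicate 5 was the lowest of its group and lay within the range of the mice on DSF. The log2 fold changes were -0.84 (SE 0.25, adjusted p = 0.14) in SDL-SD and -0.55 (adjusted p = 0.2) in SDH-SD, so neither was called. Without SD replicate 5 both passed, at -1.06 (adjusted p = 0.016, range over alternatives 0.016 to 1) and -0.78 (0.045, range 0.045 to 0.48). In each comparison 2 of 37 alternatives passed, and both of them left out SD replicate 5. On HFD the signals were 242, 209, 159, 247 and 154 in HFD, 98.7, 195, 190 and 261 in HFDL and 153, 184, 199 and 248 in HFDH livers (HFDH-HFD -0.04, adjusted p = 0.96).

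Il1r1, the signalling receptor of interleukin-1, changed over the 6 groups (F test, adjusted p = 0.0029). It measured 120, 153, 122, 138 and 134 in HFD, 171, 140, 180 and 181 in HFDL and 206, 154, 296 and 173 in HFDH livers. HFDH did not overlap with HFD (0.6, adjusted p = 0.071, under 0.05 in 4 of 37 alternatives, range 0.012 to 0.96). HFD-SD gave 0.43 (adjusted p = 0.27), with SD at 83.8, 94.9, 80.6, 87.7 and 169. Without SD replicate 5, the high value, HFD-SD was 0.62 (adjusted p = 0.024, range 0.013 to 1).

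Il1rap, the accessory chain that completes the receptors for interleukin-1 and interleukin-33, changed over the 6 groups by 3 of its 6 probes (adjusted p of 0.015, 0.0057 and 0.015), the other 3 giving 0.35 to 0.6. ILMN_2740464 measured 3100, 3830, 3530, 3030 and 3880 in HFD, 4800, 4160, 4200 and 4360 in HFDL and 4040, 4220, 4410 and 4530 in HFDH livers. Both groups on DSF lay above all HFD mice (0.34 and 0.31, adjusted p = 0.24 and 0.12). On SD the high dose gave 3280, 3410, 3400 and 2430 in SDH against 4130, 3700, 4210, 3530 and 3160 in SD livers (-0.26, adjusted p = 0.15). The other 2 of these probes gave -0.34 each in SDH-SD, ILMN_1243228 at the threshold (adjusted p = 0.05, under it in 12 of 36 alternatives, range 0.01 to 0.43) and ILMN_2740465 above it (adjusted p = 0.059, under 0.05 in 6 of 36, range 0.0069 to 0.54). For ILMN_2740464 the difference between diets was 0.58 (adjusted p = 0.12) and was not called.

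Il1rn, the natural antagonist of the receptor, was chosen after its values were seen. It measured 90.7, 85.9, 74.1 and 82.4 in HFDL livers, against 205, 92, 176, 155 and 79.1 in HFD livers (-0.67, adjusted p = 0.27). The HFD mice spread widely and overlapped with HFDL. Il18, another product of the inflammasome, measured 290, 253, 280 and 268 in HFDH against 478, 323, 378, 340 and 289 in HFD livers (-0.39, adjusted p = 0.19), with overlap at 1 mouse.

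**Figure D3:**
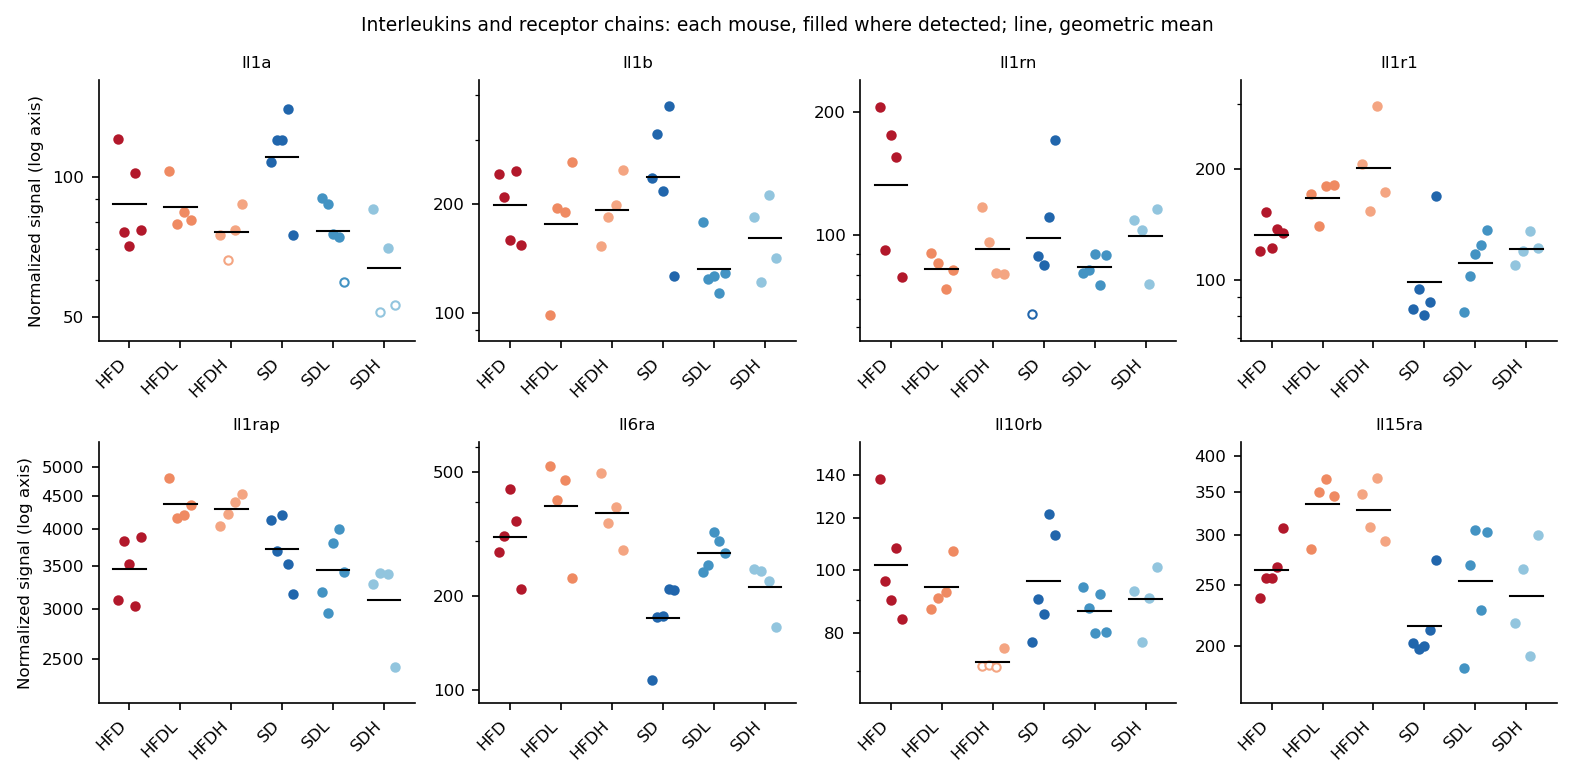
Normalized signal (log axis) in each mouse of interleukin-1 genes (Il1a, Il1b, Il1rn, Il1r1, Il1rap) and of Il6ra, Il10rb and Il15ra, by group. Filled points were detected, open points were not, and lines are geometric means. Il1a is lowest in SDH mice, and Il1r1 in HFDH mice lies above every HFD mouse.

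Other receptor chains and interleukins changed over the 6 groups in limma's F test with no pairwise call. Il6ra (adjusted p = 0.0028) measured 522, 405, 472 and 229 in HFDL, 494, 343, 385 and 280 in HFDH, 239, 251, 321, 300 and 274 in SDL and 244, 241, 223 and 159 in SDH livers. All SDL mice lay above all SD mice (0.7, adjusted p = 0.17). Il6st, the shared signalling chain gp130, gave an adjusted p of 0.57. Il13ra1, a chain of the receptor for interleukin-4 and interleukin-13 (adjusted p = 0.014), measured 932, 1000, 1200, 769 and 1060 in HFD livers, against 757, 693, 556, 460 and 1330 in SD livers (0.47, adjusted p = 0.34).

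Il15ra, which presents interleukin-15 to lymphocytes (ILMN_1249759, F test adjusted p = 0.0097), measured 238, 256, 256, 267 and 307 in HFD, 285, 351, 368 and 346 in HFDL and 348, 309, 369 and 293 in HFDH livers. Its other 2 probes gave 0.12 and 0.093. An Il15 probe near the limit of detection (ILMN_1219869, 7 mice, adjusted p = 0.021) was detected in 4 of 4 HFDL mice, and the brighter Il15 probe ILMN_2610234 gave 0.38. Without the HFDL mice the dim probe would not have met the filter of 5 mice, so no conclusion is drawn from its call. Il17rc, a chain of the interleukin-17 receptor (ILMN_2785350, 0.038), had other probes at 0.082 and 0.33, and Il34, a ligand of the colony-stimulating factor 1 receptor (0.045), was detected in 7 mice.

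Signals tied to lymphocytes separated single mice rather than groups. Chemokine receptor probes detected per mouse numbered 6 in HFDL replicate 8, 5 in SD replicate 5 and 7 in SDL replicate 7, and at most 2 in any other mouse. In these 3 mice they were probes of Cxcr4, Cxcr3, Cxcr5 and Ccr6, with Ccr7 in SDL replicate 7. The same mice were the highest of their groups on the summed T cell markers (1128 in HFDL replicate 8, 888 in SD replicate 5 and 1214 in SDL replicate 7) and on the summed B and plasma cell markers (1212, 643 and 717 in the same mice). T cell markers spanned 512 to 669 in SDH and 557 to 602 in HFD livers, 4 of their 10 probes were tested, 5 were detected in no mouse and none was called in any comparison. Of 5 B and plasma cell probes 2 were tested and none was called.

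The probes shown for this were chosen after their values were seen, except Cxcr4. Ccl19, which draws lymphocytes and dendritic cells through Ccr7, measured 121, 550, 150 and 143 in HFDL livers. In SDL livers it measured 251, 115, 112, 113 and 97.7, and in SD livers 96.7, 151, 82.7, 163 and 292. In each of these groups the mouse with the high lymphocyte markers had the highest Ccl19. Ccl5, a T cell and NK cell product, measured 95.3, 404, 150 and 118 in HFDL, 390, 90.4, 78.8, 146 and 86.4 in SDL, and 95.4, 132, 109, 254 and 342 in SD livers. Cxcr4, the receptor of Cxcl12, measured 73.4, 238, 82.2 and 79.9 in HFDL, 164, 82.5, 74.3, 85.9 and 55.4 in SDL, and 94.1, 113, 88.7, 110 and 134 in SD livers (F test adjusted p = 0.42). Il7r, a marker of naive and memory T cells, was 178 in HFDL replicate 8, 142 in SDL replicate 7 and 120 in SD replicate 5. High values were not confined to these 3 mice. Before normalization, Il7r had an intensity of 129 in HFDH replicate 13, against 119 in SD replicate 5, and Ccl5 one of 299 in HFD replicate 1. Leaving these 3 mice out, a choice made after the data were seen, gave 2 calls in HFD-SD, 4 in HFDH-HFD and 2 in SDL-SD. Without SD replicate 5 alone there were also 2 in HFD-SD and 4 in HFDH-HFD. None of the 3 mice is an HFDH or HFD mouse, and they enter that comparison only through the fit shared by all groups. The share of all probes called is not given for these settings, so these counts are not read as a result about the members. The part of lymphocytes in the group comparisons was not tested.

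Cxcl13, which draws B cells through Cxcr5, was chosen after its values were seen. It measured 2550, 187, 139 and 76.7 in HFDH livers, against 207, 82.3, 91, 73.7 and 78 in HFD livers (1.45, adjusted p = 0.21). The difference rested on HFDH replicate 13, and the other HFDH mice overlapped with HFD.

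**Figure D4:**
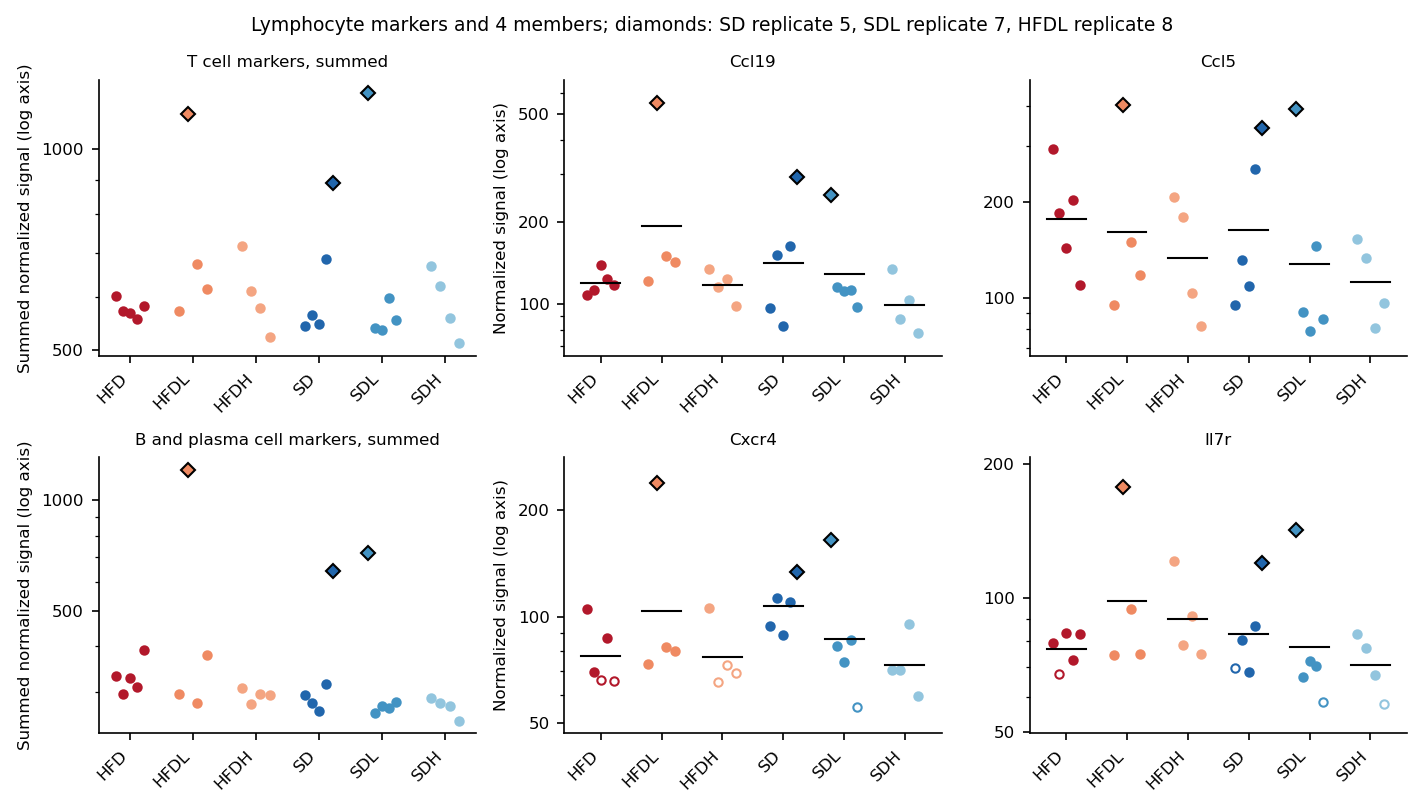
Summed signal of T cell markers and of B and plasma cell markers, and normalized signal of Ccl19, Ccl5, Cxcr4 and Il7r, in each mouse by group (log axes). Diamonds mark SD replicate 5, SDL replicate 7 and HFDL replicate 8, which are the highest of their groups on both marker sums.

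Genes of the same pathways under other names were counted from lists written for this purpose, beside 0.859% of all probes called in HFD-SD and 7.39% in SDH-SD. Of 9 tested probes for other chemokines and their receptors, none was called in the 5 comparisons, and Cx3cr1, the fractalkine receptor, came closest in SDH-SD (-0.68, adjusted p = 0.051). Of 21 tested probes for other cytokines and receptors, Mif, a macrophage cytokine, rose in SDH-SD (0.54, adjusted p = 0.031) and none was called otherwise. Of 41 tested probes for the downstream signalling genes, 2 rose in HFD-SD, both of Stat3, the transcription factor of the interleukin-6 pathway (0.79 and 0.86, adjusted p = 0.034 and 0.024). The other tested Stat3 probe was not called by limma (0.7, adjusted p = 0.088). In SDH-SD, Socs3, an inhibitor induced by Stat3, rose in limma's test (1.54, adjusted p = 0.029). A Stat3 probe rose too (0.72, 0.03), while the other Stat3 probes were not called (0.4 and 0.36, adjusted p = 0.2 and 0.3). Ikbkb, a kinase of the NF-kappa-B pathway, fell (-0.4, 0.025). The 3 of 41 probes called in SDH-SD, and the 1 of 21 above, are no larger a share than that over all probes. None was called in HFDL-HFD, HFDH-HFD or SDL-SD.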

How the data were processed

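Liver RNA of 30 mice was measured on 32 Illumina MouseRef-8 v2 BeadChips. The authors extracted probe intensities with GenomeStudio (version 2011.1 in the submitters' processing notes) and deposited them on a linear scale, not normalized, with a detection p-value for each probe on each array. A second deposited table holds the authors' Z score of each probe and was used in alternatives alone. Of the probes, 1719 (6.69%) carry no symbol and could not be members.

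Each array's log2 intensities were set to a mean of 0 and a standard deviation of 1, then multiplied by the average standard deviation of the arrays (1.88) and shifted to their grand mean. Mice whose arrays detect under 35% of probes were left out, which kept 27 of 30. Probes detected in at least 5 mice were tested with limma (version 3.58.1, R 4.3.3), fitting a mean for every group and moderating the variances by empirical Bayes. P-values were adjusted by Benjamini-Hochberg across the 13275 probes, and the procedure was tested on simulated data. All adjusted p of single probes are from this model, and SE is that of the log2 fold change. For a fold given as at least a value, the dimmer group's signals were raised to the lowest detected signal of their array. The labels number separate samples as replicates. Columns of mice on DSF were assigned to groups by their headers, which do not give the titles' numbers.

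Named members were all those called in any of the 5 comparisons or the F test, the 3 brightest genes of each role, the smallest p in each comparison, and Il1b, Il6, Il10, Ccl2, Ccr2 and Il18. Members, lists and rules were chosen with earlier results of these data known. Alternatives changed the mice, normalization, filter, unit of test, samples in the fit and value table.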

Additional observations from a re-analysis of the deposited data

Results flagged for a closer look

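A mouse was singled out where its gap to the nearest other mouse of its group was large against the range of the group (Dixon's test at the 95% level). Of 174 groups of named members or detection counts tested, 13 were singled out, and chance does so for about 5% of groups.

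SDH replicate 17, whose array carries pancreatic acinar signal, was the lowest of its group for Ccl27a (438, the others 671 to 717) and for 2 Il1rap probes, ILMN_1243228 (2010, the others 2360 to 2420) and ILMN_2740464 (2430, the others 3280 to 3410). SD replicate 5 was the highest of its group for Il15ra (274, the others 198 to 212) and Il1r1 (169, the others 80.6 to 94.9). SDL replicate 7 was the highest for Il1b (178, the others 114 to 129) and in the number of members detected (70, the others 58 to 59), and HFDL replicate 8 for Cxcr4 (238, the others 73.4 to 82.2). These 3 mice are those with the highest lymphocyte markers of their groups.

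SD replicate 1 was the lowest of its group for Cxcl1 (862, the others 5020 to 9970). Other single values were Ccl25 (ILMN_2661722) in HFD replicate 4, the lowest at 85 (the others 109 to 120), Il1rap (ILMN_2740465) in HFDL replicate 7, the highest at 4640 (the others 3860 to 3950), Cxcl10 in HFDH replicate 14, the highest at 62.5 though not detected (the others 50.2 to 51.2), and Il10rb in HFDH replicate 17, the highest at 75.8 (the others 71 to 71.4).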

How the results depend on the processing

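With all 30 mice, which takes in SDH replicate 16 with a highest intensity of 60 and a log2 spread of 0.102 that the scaling stretches, 0 members were called in HFDH-HFD, in SDH-SD and over the 6 groups, as also on the authors' scores over all 30 mice without and with the replicate block of the titles, and in SDH-SD the log2 fold changes of Ccl25 (ILMN_2942353, -0.06), Ccl3 (0.19) and Ccl9 (-0.59) changed sign. Quantile normalization called 4 in HFDH-HFD, median centring without scaling 1 in HFD-SD and 1 in SDL-SD, and no detection filter 1 in HFDH-HFD. Over all probes, the fit of all 30 mice called 1 higher and 18 lower in HFDH-HFD, and 4 and 8 in SDH-SD. Quantile normalization called 225 higher and 317 lower over all probes in HFDH-HFD. Median centring called 31 higher and 163 lower over all probes in HFD-SD, and 26 and 66 in SDL-SD. Without SD replicate 2 and SDH replicate 17 there were 2 in SDH-SD. When a fit held no mice but those of SDH and SD there were also 2, but Cxcl1 was not among them (1.67, adjusted p = 0.17 in limma's test). Without SD replicate 5, SDL replicate 7 and HFDL replicate 8, chosen after seeing the data, there were 2 in HFD-SD, 4 in HFDH-HFD and 2 in SDL-SD. The study's criteria called 7 in HFD-SD, 7 in HFDL-HFD, 9 in HFDH-HFD and 9 in SDL-SD. Neither their count in SDH-SD nor their counts over all probes are given here. Member counts of this paragraph without a count over all probes are not read as a result about the members.

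Leaving out 1 mouse at a time gave 0 to 2 members in HFD-SD (2 without SD replicate 5), 0 to 0 in HFDL-HFD, 0 to 4 in HFDH-HFD, 0 to 3 in SDL-SD (3 without SD replicate 1), 5 to 11 in SDH-SD and 13 to 22 over the 6 groups. For HFDH-HFD it was 0 when HFD replicate 1 or 4 or HFDH replicate 13 was left out, and 4 without SD replicate 5. The share of all probes called in these fits is not given, so the ranges are not read as a result about the members. Of the SDH-SD calls, those of Cxcl1 and Ccl9 failed most often (in 17 and 22 of 37 alternatives).

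The replicate block of HFD and SD, which share numbers 1 to 5, called 0 members and 13 of 13275 probes in HFD-SD, against 114 without it. Mice of the same number correlated at -0.2, 0.16, 0.18, 0.19 and 0.03 in their deviations, against at most 0.15, 0.11, 0.03, 0.03 and 0.24 with other numbers, so that the own number was highest in 3 of 5 pairs. As not every pair was over 0.1 and the labels tie the numbers to nothing shared, they were not taken as pairs. Median centring without scaling shifted the median of all probes by -0.12 in HFD-SD and -0.11 in SDH-SD. The share of all calls that was higher in SDH-SD was 36.6% as reported, 47.2% after quantile normalization, 48.2% with neqc and 14.4% after median centring, and in HFDH-HFD 33%, 41.5%, 41% and 3.6%. The members higher and lower in SDH-SD were 3 and 6 as reported, 1 and 9, 2 and 8, and 2 and 9 under the same settings. At a detection p under 0.01 the median number of members detected was 51 in SD, 46 in SDL, 44 in SDH, 46 in HFD, 44 in HFDL and 40 in HFDH mice. Where no cause is named, it was not tested.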
